A study of Mus musculus with 16 samples.

Results

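The RGS (regulator of G protein signalling) genes described here are 7 named members of the family, Rgs1, Rgs2, Rgs3, Rgs14, Rgs16, Rgs18 and Rgs19, chosen by name from the 23337 gene symbols counted in mouse blood neutrophils. All 7 were in the table, 6 had counts that allowed a test, and Rgs16 had no count in any library. Bulk RNA-Seq of 16 libraries covered 4 groups: control mice gave 3 unstimulated and 4 stimulated libraries, and LTβRΔN mice gave 4 unstimulated and 5 stimulated ones. All mice were 8 weeks old, were of the C57/Bl6 strain and carried the floxed Ltbr allele (Ltbrfl/fl). LTβRΔN mice also carried Mrp8-Cre, a Cre driven by the promoter of a myeloid gene that neutrophils express strongly, and controls (Ctrl) were Cre- littermates. Neutrophils were enriched from blood by magnetic bead negative selection, which leaves a share of other cells. According to the treatment protocol the cells were then kept for 2 h in 100 ng/ml TNF, 50 ng/ml IL-6 and 100 ng/ml GM-CSF, either alone or together with 500 ng/ml of soluble LIGHT, the ligand of LTβR. The design text instead describes the cytokines themselves as present or absent, and the labels of the single libraries do not mention LIGHT. The groups are therefore called unstimulated and stimulated, as labelled. The labels do not say whether libraries of a group came from separate animals, so p-values measure the spread between these libraries.

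Neutrophils follow chemoattractants through G protein-coupled receptors, most of which act through the inhibitory Gα subunits and the Gβγ dimers released with them. An activated Gα subunit stays on while it holds GTP, and RGS proteins shorten that time by speeding up GTP hydrolysis, which limits how long and how strongly a receptor signals. Rgs1, Rgs2, Rgs3, Rgs16 and Rgs18 belong to the R4 subfamily of mostly small proteins, Rgs14 to the R12 subfamily and Rgs19 (GAIP) to the RZ subfamily.

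Rgs2, Rgs1 and Rgs18 lie close together. In GENCODE M21 on GRCm38, Rgs2 (ENSMUSG00000026360.9) occupies chr1:143999338-144004161, Rgs1 (ENSMUSG00000026358.13) chr1:144242296-144249242 and Rgs18 (ENSMUSG00000026357.3) chr1:144752683-144775435, all on the minus strand. The 5 protein-coding genes in these 776.1 kb were all RGS genes. The other two, Rgs13 and Rgs21, gave no values, as Rgs13 had no count in any library and Rgs21 was not analysed here. Rgs16 lies farther along the same chromosome, at chr1:153740349-153745468 on the plus strand. Rgs3 is at chr4:62559847-62704001 (plus), Rgs14 at chr13:55369732-55384687 (plus) and Rgs19 at chr2:181688419-181693977 (minus).

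The promoter of Rgs2 is shown because Rgs2 had the highest mean level per length of the members in unstimulated neutrophils and one of the 2 members that fell with stimulation. The RefSeq promoter table (GRCm38.p6) held 4 of the 7 members, Rgs2, Rgs3, Rgs16 and Rgs19, and not Rgs1, Rgs14 or Rgs18. The GENCODE start of Rgs2, chr1:144004161, differs from the RefSeq start and lies inside the window shown, so positions below count from the RefSeq start. The 250 bases before that RefSeq start, chr1:144004150-144004399 read on the minus strand, are printed with the matches named after it, to TGACG (on either strand) and to CCAAT, in capitals.
Rgs2: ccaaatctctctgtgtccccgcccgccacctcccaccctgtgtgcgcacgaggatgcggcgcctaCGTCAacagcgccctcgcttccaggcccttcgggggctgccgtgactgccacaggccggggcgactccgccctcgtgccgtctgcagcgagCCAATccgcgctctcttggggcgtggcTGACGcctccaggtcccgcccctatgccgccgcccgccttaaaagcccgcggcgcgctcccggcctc
The letters TGACG, the core of the cAMP response element, began 67 bases before the start on the strand shown and 185 bases before it as the reverse complement, and 17.8% of 32841 promoters held them on either strand. CCAAT, a common promoter element, began 94 bases before the start, and 33.9% of promoters held it on either strand. The GC box GGGCGG matched 4 times on the opposite strand, and 32.7% of promoters held it. There was no match on either strand to TATAAA, which 12.4% of promoters held. The sequence was 72.4% G and C against a median of 52.4% over all promoters. These matches are letters in a window and no measure of binding.

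Library totals ranged from 1094335 to 11932653 counts, and 9213 gene symbols passed the filter on low counts. Libraries 68, 75 and 77, all LTβRΔN, were the shallowest, with 1094335, 1697583 and 1506153 counts. Levels are given in CPM, read counts normalised to library depth after TMM scaling. Ltbr, the floxed gene, averaged 116 CPM in control and 8.22 CPM in LTβRΔN neutrophils without stimulation, and its log2 fold change by genotype was -3.80 in unstimulated and -3.71 in stimulated libraries. Cish, Socs3 and Nfkbia, targets of cytokine signalling, rose with stimulation in both genotypes by 3.59 to 8.60 on the log2 scale. Of 10 neutrophil markers 9 were in the table, Ly6g was not among those analysed here, and their summed level was 45500 to 75800 CPM. B cell markers summed to 0 to 1.60 CPM per library, with 5 of 7 at 0 in every library, and T and NK cell markers to 4.53 to 16.1 CPM. Monocyte markers summed to 341 to 563 CPM without and 357 to 456 CPM with stimulation. Immature neutrophil markers, 8 genes of which 2 were at 0 in every library, summed to 1870 to 2570 CPM in unstimulated and 1680 to 3320 CPM in stimulated control libraries, and to 1960 to 2320 and 1790 to 2440 CPM in LTβRΔN libraries. These sums were mostly Lcn2, with 1600 to 2510 CPM over all libraries. The next highest marker of the list, Ngp, had 20 to 370 CPM. None of the 6 tested immature neutrophil markers passed the threshold in any comparison by edgeR, where at most 3.73% of all tested genes passed. The markers' median log2 fold change was 1.275 with stimulation in control, -0.039 with stimulation in LTβRΔN neutrophils and -1.596 by genotype in stimulated libraries. Their part in the levels of the RGS genes was not tested.

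The first question was whether the regulators differed between unstimulated and stimulated neutrophils of control mice. Rgs1 and Rgs2 fell and the other 4 tested members did not pass the threshold. Rgs1, known for restraining the chemotaxis of B cells, was 10.5-fold lower, and Rgs2, which acts preferentially on Gαq, was 2.76-fold lower. By edgeR's quasi-likelihood test (adjusted p under 0.05), 2 of 6 tested members were lower and 0 higher, where 3.48% of all tested genes passed, 0.662% lower and 2.82% higher. The median log2 fold change of the 6 members was -0.171, against -0.024 for all genes. The members were chosen with earlier results of these data known. Their shares beside those of all genes, here and below, are therefore descriptive and no test of the set.

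Rgs1 had 36.3, 31.5 and 35.8 CPM in the 3 unstimulated control libraries and 2.43, 5.22, 0.297 and 5.49 CPM in the 4 stimulated ones. Every stimulated library lay far below every unstimulated one, and the lowest, library 82, held 3 Rgs1 counts (0.0613 to 0.869 CPM, exact binomial 95% interval for counting error only). The group means were 34.5 ± 2.63 (SD, n = 3) and 3.36 ± 2.47 (SD, n = 4) CPM, and edgeR gave a log2 fold change of -3.40 with a standard error of 0.693 and an adjusted p of 0.00319. Rgs2 had 821, 854 and 895 CPM in the unstimulated and 295, 313, 239 and 392 CPM in the stimulated control libraries. These groups did not overlap either, and library 82 was again the lowest. For Rgs2 edgeR gave -1.47 on the log2 scale with a standard error of 0.234 and an adjusted p of 0.000178, between means of 856 ± 37.2 (SD, n = 3) and 310 ± 63.2 (SD, n = 4) CPM. For 6.09% of all tested genes every stimulated control library lay below every unstimulated one. In bulk RNA, fewer cells that express a gene and less RNA of it per cell cannot be told apart.

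**Figure D1:**
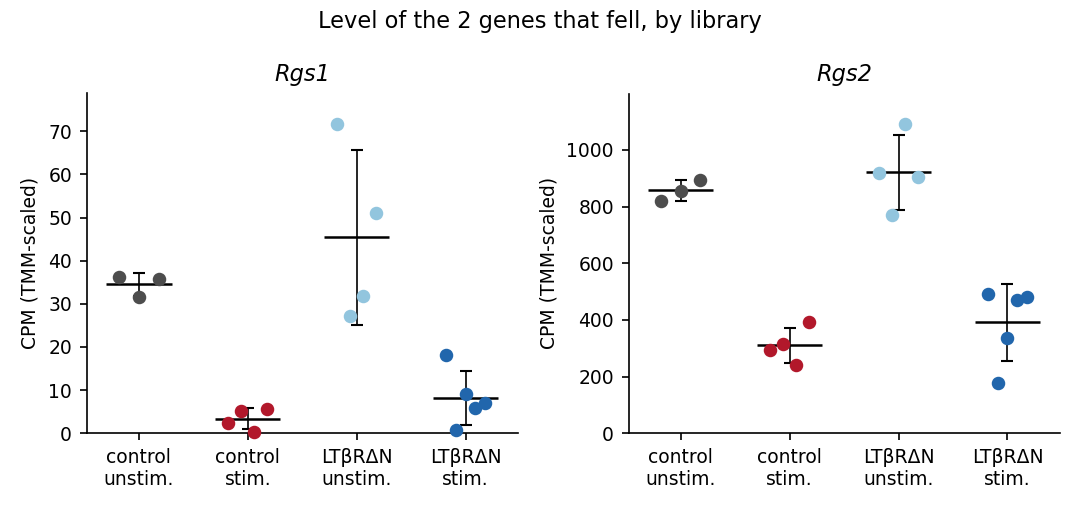
Points are single libraries, horizontal lines group means and error bars 1 SD, with the level in CPM on a linear axis for Rgs1 (left) and Rgs2 (right). In both genotypes all stimulated libraries lie below all unstimulated ones, with Rgs1 at 0.297 to 18.1 CPM against 27.2 to 71.6 CPM.

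The same comparison was made in LTβRΔN neutrophils, where Rgs1 and Rgs2 again fell. Rgs1 was 6.06-fold and Rgs2 2.36-fold lower with stimulation. Of 6 tested members 2 were lower and 0 higher, where 3.73% of all tested genes passed, 0.749% lower and 2.98% higher. Lower in both genotypes were the same 2 members, against 0.391% of all tested genes. The median log2 fold change of the members was -0.351, against -0.028 for all genes.

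Rgs1 had 71.6, 27.2, 31.7 and 51.1 CPM in the 4 unstimulated and 18.1, 0.743, 9.16, 5.84 and 6.97 CPM in the 5 stimulated LTβRΔN libraries. The groups did not overlap, and the unstimulated libraries spread more widely (45.4 ± 20.3 CPM, SD, n = 4) than those of controls. In the stimulated libraries (8.16 ± 6.34 CPM, SD, n = 5) these levels rest on 6 to 29 counts. By edgeR Rgs1 changed by -2.60 on the log2 scale, with a standard error of 0.618 and an adjusted p of 0.0131. Without library 67, the highest unstimulated one, Rgs1 was no longer past the threshold (log2 fold change -2.27, edgeR adjusted p = 0.0699). Without the shallow libraries 68, 75 and 77 the change was larger, at -3.65 (edgeR adjusted p = 0.012).

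Rgs2 had 919, 769, 1090 and 906 CPM in the unstimulated and 492, 176, 336, 471 and 482 CPM in the stimulated LTβRΔN libraries. The groups did not overlap, and library 76 was lowest for both genes. For Rgs2 edgeR gave -1.24 with a standard error of 0.208 and an adjusted p of 0.000312, between means of 920 ± 130 (SD, n = 4) and 391 ± 136 (SD, n = 5) CPM. For 2.67% of tested genes every stimulated LTβRΔN library lay below every unstimulated one, and for 0.868% this held in both genotypes. Libraries 76 and 82, the lowest of their groups for Rgs1 and Rgs2, had the largest totals of their groups. Without them Rgs1 changed by -2.98 on the log2 scale in control and -2.22 in LTβRΔN neutrophils, and Rgs2 by -1.36 and -1.04, with edgeR adjusted p between 4.44e-06 and 0.0013.

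The library names carry an index, S520 in 6 and S521 in 10 libraries. In LTβRΔN neutrophils all unstimulated libraries were S520 and all stimulated ones S521, so that index and stimulation cannot be told apart there. With the index as a covariate, estimated from the control libraries, neither gene passed the threshold in LTβRΔN neutrophils (Rgs1 log2 fold change -2.67, edgeR adjusted p = 0.892, and Rgs2 -1.34, edgeR adjusted p = 0.304). In control neutrophils both passed with this covariate (edgeR adjusted p = 0.0402 for Rgs1 and 0.00806 for Rgs2). Within S521 the 1 unstimulated control library, 73, had 35.8 CPM of Rgs1 and 895 CPM of Rgs2, above all 4 stimulated control libraries of that index. The fold changes within S521 were as large as over all control libraries, with -3.43 for Rgs1 (edgeR adjusted p = 0.329) and -1.54 for Rgs2 (edgeR adjusted p = 0.022), where the lone library is assumed to vary like the others.

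**Figure D2:**
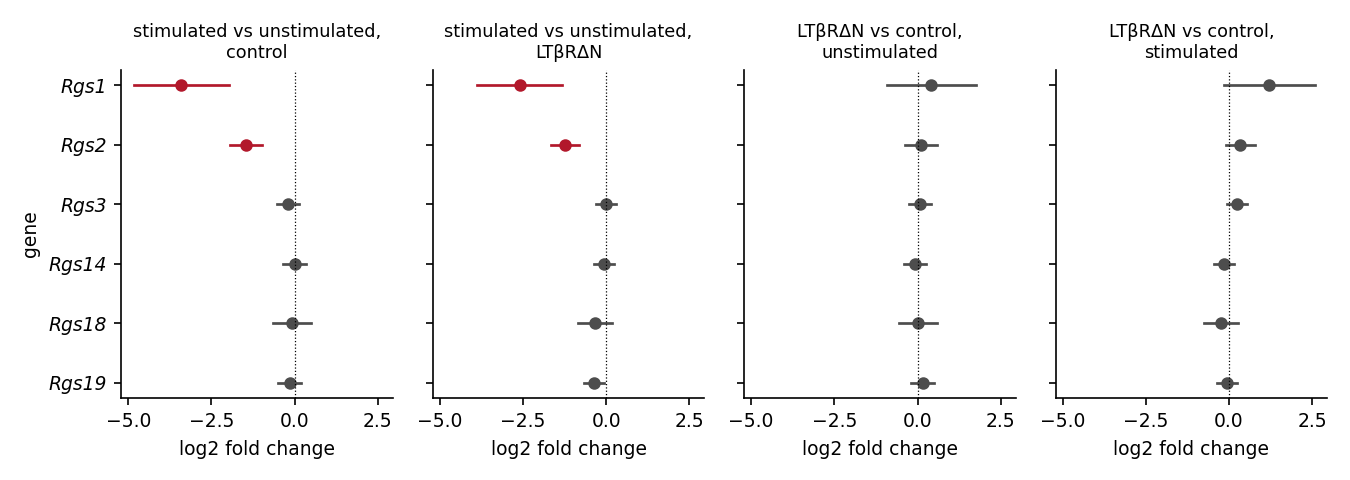
Points are log2 fold changes of the 6 tested members (rows) from edgeR and lines their 95% confidence intervals, in the 4 comparisons named above the panels, with red for edgeR adjusted p under 0.05. Only Rgs1 and Rgs2 are red, in both stimulation panels, and the intervals of all members cross 0 in both genotype panels.

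Rgs3, a member with long isoforms, had 264 to 313 CPM in unstimulated and 210 to 286 CPM in stimulated control libraries, and 251 to 329 and 226 to 381 CPM in LTβRΔN libraries. The ranges overlapped in both genotypes. Its log2 fold change with stimulation was -0.19 (95% confidence interval -0.52 to 0.14) in control and -0.01 (-0.31 to 0.29) in LTβRΔN neutrophils. A change by as much as that of Rgs2 lay outside both intervals.

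Rgs14, which binds inactive Gαi through a GoLoco motif in addition to its RGS domain, ranged from 170 to 278 CPM over all control libraries and from 178 to 239 CPM over all LTβRΔN libraries. Unstimulated and stimulated ranges overlapped. The intervals of its log2 fold change were -0.34 to 0.34 in control and -0.37 to 0.24 in LTβRΔN neutrophils.

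Rgs18, best known from platelets and megakaryocytes, had 28.3 to 77.8 CPM over all libraries, and its ranges overlapped between all 4 groups. Its log2 fold change was -0.08 (95% confidence interval -0.66 to 0.49) in control and -0.34 (-0.86 to 0.18) in LTβRΔN neutrophils. The highest Rgs18 level, 77.8 CPM, was in library 82 (stimulated control), which also had the highest summed level of 10 platelet markers, 243 CPM against 7.16 to 55.4 CPM in the other libraries. These markers summed to 7.16 to 28 CPM in unstimulated control, 11.6 to 243 CPM in stimulated control, 9.05 to 14.4 CPM in unstimulated LTβRΔN and 8.72 to 12.7 CPM in stimulated LTβRΔN libraries. None of the 10 was at 0 in all libraries, and their part in the Rgs18 level was not tested. The lowest Rgs18 level, 28.3 CPM, was in a stimulated LTβRΔN library.

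Rgs19, which acts on Gαi and carries the cysteine string of its subfamily, had 290 to 379 CPM in unstimulated and 221 to 349 CPM in stimulated control libraries. In LTβRΔN neutrophils the 4 unstimulated libraries had 327 to 517 CPM and the 5 stimulated ones 283 to 300 CPM. These LTβRΔN groups did not overlap, as for 2.67% of all tested genes every stimulated LTβRΔN library lay below every unstimulated one. The difference did not pass the threshold (log2 fold change -0.36 with a standard error of 0.148, edgeR adjusted p = 0.262). Library 68 alone reached 517 CPM, and without it the log2 fold change was -0.18. When libraries were scaled by their totals only, Rgs19 passed in LTβRΔN neutrophils (log2 fold change -0.56, edgeR adjusted p = 0.0392). That scaling moved the median log2 fold change of all genes to -0.27 in control and -0.21 in LTβRΔN neutrophils. It also changed the split of changed genes, from 260 higher and 61 lower to 201 higher and 272 lower in control, and from 275 higher and 69 lower to 216 higher and 293 lower in LTβRΔN neutrophils.

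Rgs16, a small inducible R4 member, had 0 counts in all 16 libraries. A count of 0 (limit of 3 counts) allows up to 0.228 to 2.40 CPM per library, depending on its depth, or 0.0304 CPM over all libraries together. No difference can be given for it. In the annotation 236 bases of its exons are shared with an antisense gene, Gm28513, and whether counting used strand is not given in the sources used here.

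**Figure D3:**
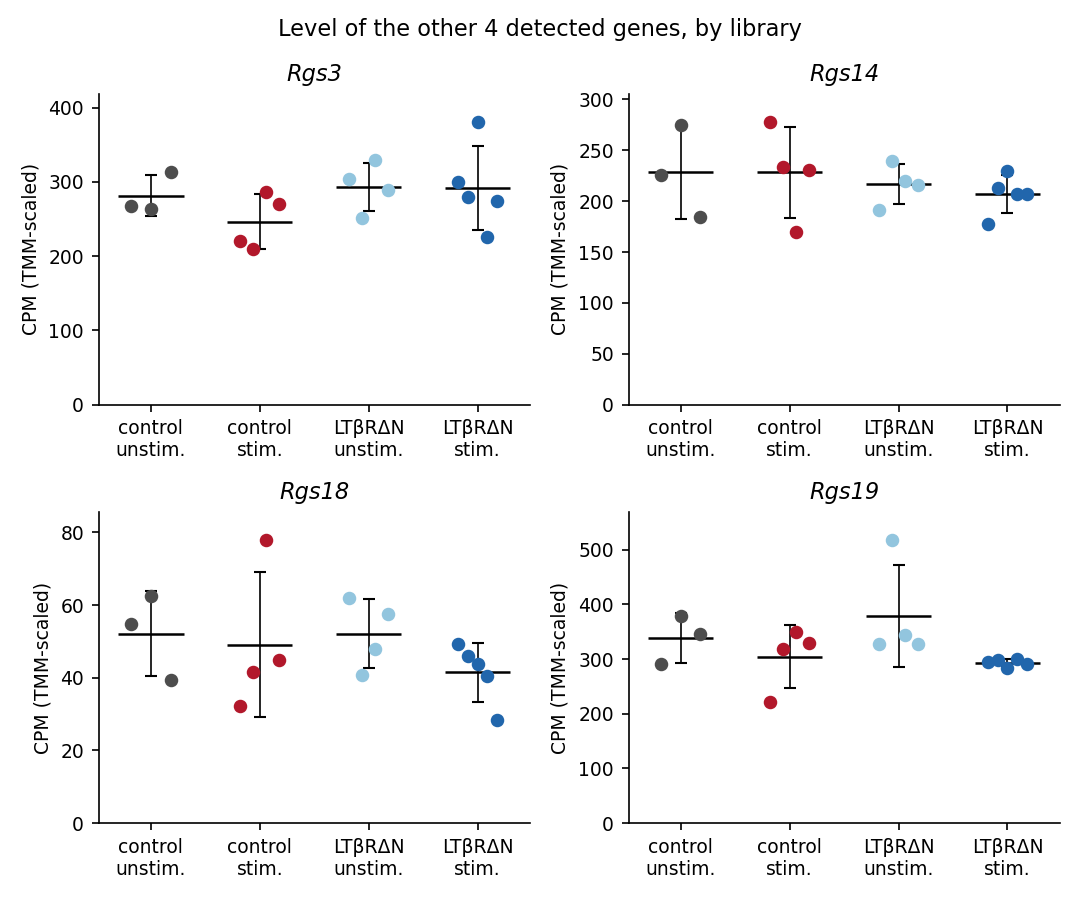
Points are single libraries, horizontal lines group means and error bars 1 SD, with the level in CPM on axes that start at 0, for Rgs3, Rgs14, Rgs18 and Rgs19. Stimulated and unstimulated libraries overlap in each panel except Rgs19 in LTβRΔN neutrophils, where library 68 stands at 517 CPM. For 2.67% of all tested genes every stimulated LTβRΔN library lay below every unstimulated one.

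Levels were compared between members as CPM per kb of the longest coding transcript. Rgs2 and Rgs19 had the highest means in all groups, and by this length which of them was higher changed with stimulation. Rgs2 was above Rgs19 in 6 of 7 unstimulated and in 0 of 9 stimulated libraries, the exception being library 68. In control neutrophils Rgs2 had 283 ± 12.3 (SD, n = 3) CPM per kb without and 103 ± 20.9 (SD, n = 4) CPM per kb with stimulation, while Rgs19 had 224 ± 29.6 (SD, n = 3) and 201 ± 37.6 (SD, n = 4) CPM per kb. In LTβRΔN neutrophils Rgs2 had 304 ± 42.9 (SD, n = 4) CPM per kb without and 130 ± 45.1 (SD, n = 5) CPM per kb with stimulation, and Rgs19 had 251 ± 61.3 (SD, n = 4) and 194 ± 4.67 (SD, n = 5) CPM per kb. Rgs2 was above Rgs14 in 14 of 16 libraries, both exceptions being stimulated. Below Rgs19, the order Rgs14, Rgs3, Rgs18 and Rgs1 held in all 16 libraries by this length. The order of Rgs3 and Rgs18 depended on it, as did that of Rgs2 and Rgs19 with stimulation. Per kb of all annotated exons together, Rgs18 averaged 24.2 and Rgs3 22.9 CPM in stimulated control neutrophils, and 25.7 and 26.1 CPM in unstimulated ones. By that length Rgs2 averaged 85.4 and Rgs19 137 CPM per kb in stimulated control neutrophils, and 108 and 132 CPM per kb in stimulated LTβRΔN neutrophils. In CPM without a length the means of Rgs2 and Rgs19 were 310 and 304 in stimulated control neutrophils. In stimulated LTβRΔN neutrophils they were 391 and 293 CPM, with Rgs2 the higher. Rgs14 had 87.9 to 97.0 CPM per kb as group means, Rgs3 52.5 to 62.4, Rgs18 20.4 to 25.7 and Rgs1 0.875 to 11.8. The transcript length used for each gene is an annotation choice that moves these levels between genes but not between libraries.

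The makeup of the summed level of the 7 members shifted accordingly. Rgs2 made up 40.6 ± 2.39% (SD, n = 3) of the summed CPM per kb in unstimulated and 21.4 ± 3.54% (SD, n = 4) in stimulated control neutrophils. In LTβRΔN neutrophils its share was 40.8 ± 5.69% (SD, n = 4) and 25.6 ± 7.71% (SD, n = 5). Rgs19 took 31.9% and 41.9% in control and 33.4% and 39.3% in LTβRΔN neutrophils, as means over libraries. Rgs1 stayed a small part, with at most 2.61% in any library. The summed level itself was 699 ± 46.0 (SD, n = 3) and 478 ± 41.2 (SD, n = 4) CPM per kb in control, and 747 ± 38.8 (SD, n = 4) and 496 ± 38.8 (SD, n = 5) CPM per kb in LTβRΔN neutrophils.

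**Figure D4:**
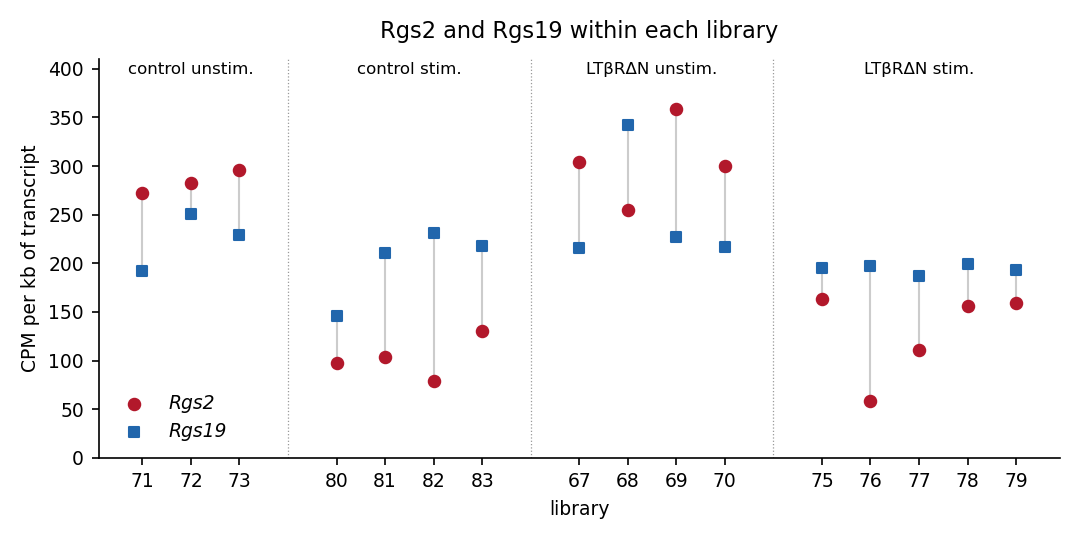
For each library, in the 4 groups set apart by dotted lines, the level of Rgs2 (red circles) and Rgs19 (blue squares) is shown in CPM per kb of the longest coding transcript on a linear axis. Rgs2 lies above Rgs19 in 6 of 7 unstimulated libraries and below it in all 9 stimulated ones.

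Whether the receptor's absence altered the regulators was asked by comparing LTβRΔN with control neutrophils. By edgeR 0 of 6 tested members passed the threshold in unstimulated and 0 of 6 in stimulated libraries, and 0 had an unadjusted p under 0.05 in either. DESeq2 and limma voom also gave 0 in both. In each of these comparisons 0.0217% of all tested genes passed, and 2.80% and 6.41% had an unadjusted p under 0.05. The median log2 fold change of the members was 0.082 without and 0.093 with stimulation, against -0.008 and -0.011 for all genes.

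The estimate by genotype was least certain for Rgs1. In stimulated libraries it was at 8.16 CPM in LTβRΔN and 3.36 CPM in control neutrophils, with overlapping ranges, a log2 fold change of 1.21 (95% confidence interval -0.16 to 2.58, edgeR adjusted p = 0.823). This estimate was 0.33 without libraries 68, 75 and 77 and ranged from 0.65 (without library 75) to 1.62 with single libraries left out. In unstimulated libraries its log2 fold change by genotype was 0.41 (-0.93 to 1.74). The levels of Rgs1 thus ordered from stimulated control over stimulated LTβRΔN and unstimulated control to unstimulated LTβRΔN, where the genotypes overlapped at each step and the treatments did not. Rgs2 differed by genotype by 0.10 (-0.38 to 0.59) without and 0.33 (-0.10 to 0.77) with stimulation on the log2 scale. For Rgs3, Rgs14, Rgs18 and Rgs19 the log2 fold changes by genotype lay between -0.25 and 0.24.

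The stimulation change itself was compared between genotypes by the interaction term. By edgeR 0 of 6 tested members and 0% of all genes passed, DESeq2 and limma voom also gave 0 members, and 0 members against 3.71% of genes had an unadjusted p under 0.05. The interaction was 0.80 (95% confidence interval -1.08 to 2.68) for Rgs1 and 0.23 (-0.42 to 0.88) for Rgs2 on the log2 scale. The interval for Rgs1 is wide, and the estimate was -0.25 without libraries 68, 75 and 77.

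Other genes of the same pathway were counted from lists by role. These lists were chosen with earlier results of these data known, so the shares that passed are descriptive and no test of a list. The table held 13 further RGS genes, of which 1 had enough counts for a test, Rgs10, at 0 to 7.93 CPM, and it did not pass in either stimulation comparison. None of 9 tested Gα subunits, 9 Gβ and Gγ subunits or 21 downstream effectors passed in either stimulation comparison. Of all tested genes 3.48% passed in control and 3.73% in LTβRΔN neutrophils, and at these shares lists of this size may well hold none. Gnai2, the main inhibitory Gα subunit of leukocytes, averaged 3340 CPM without and 3090 CPM with stimulation in control neutrophils (log2 fold change -0.11, 95% confidence interval -0.35 to 0.13). The median log2 fold change of the Gα list was -0.363 in control and -0.174 in LTβRΔN neutrophils, that of the Gβ and Gγ list 0.024 and -0.073, and that of the effectors 0.002 and -0.066.

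Of 6 tested GPCR kinases and arrestins 1 was higher in both stimulation comparisons, where 2.82% of all tested genes were higher in control and 2.98% in LTβRΔN neutrophils. This was Adrbk1, which encodes GRK2, a kinase that marks active receptors for arrestin binding, at 224 ± 24.8 (SD, n = 3) CPM without and 487 ± 200 (SD, n = 4) CPM with stimulation in controls (log2 fold change 1.12, edgeR adjusted p = 0.00551) and a log2 fold change of 0.81 (edgeR adjusted p = 0.0274) in LTβRΔN neutrophils. The list's median was 0.26 in control and 0.529 in LTβRΔN neutrophils, against -0.024 and -0.028 for all genes.

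Of 16 tested chemoattractant and related receptors, again a list chosen with earlier results known, 5 were higher and 0 lower in each stimulation comparison. Of all tested genes 2.82% and 2.98% were higher, and the list's share is no test against these. The list's medians were 0.294 in control and 0.214 in LTβRΔN neutrophils, against -0.024 and -0.028 for all genes. The 5 higher receptors were Ccr1, a chemokine receptor, Ccrl2, which binds chemerin, Fpr2, a formyl peptide receptor, Ptafr, the receptor of platelet-activating factor, and Niacr1, which encodes the hydroxycarboxylic acid receptor Hcar2. Ccrl2 had log2 fold changes of 2.52 in control and 1.99 in LTβRΔN neutrophils. Niacr1 rose by 1.62 and 1.49 on the log2 scale and averaged 3120 CPM without and 9600 CPM with stimulation in control and 3530 and 9930 CPM in LTβRΔN neutrophils. Ccr1 rose by 1.14 and 1.06, Ptafr by 1.38 and 1.32 and Fpr2 by 0.98 in both on the log2 scale. Cxcr2, the main receptor for neutrophil-attracting CXC chemokines, did not pass (log2 fold change -0.29, edgeR adjusted p = 0.264 in control, and -0.10, edgeR adjusted p = 0.803 in LTβRΔN neutrophils). None of these lists held a gene past the threshold by genotype, where 0.0217% of all tested genes passed in each genotype comparison.

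The genes whose levels followed Rgs2 most closely over the 16 libraries, by the root mean square difference of log2 CPM centred on each gene's mean, were D4Wsu53e (0.234), Arrdc3 (0.334) and Pnrc2 (0.371). Arrdc3, an arrestin domain protein, had mean levels of 476 and 180 CPM in unstimulated and stimulated control and 472 and 209 CPM in unstimulated and stimulated LTβRΔN neutrophils. The genes closest to Rgs1 were farther from it, with differences of 1.088 for Iars2, 1.173 for Thbd and 1.207 for Dusp6. Iars2 was low, at means of 4.75 and 0.54 CPM in unstimulated and stimulated control neutrophils. It passed in neither stimulation comparison (edgeR adjusted p = 0.425 in control and 0.433 in LTβRΔN neutrophils). Thbd passed in control (edgeR adjusted p = 0.00564) but not in LTβRΔN neutrophils (edgeR adjusted p = 0.0687). Dusp6, a phosphatase of ERK, had 794 and 179 CPM in control and 730 and 172 CPM in LTβRΔN neutrophils. Rgs2 itself was the next closest to Rgs1, at 1.244, which is outside the number of genes named by rule.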

How the data were processed

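The authors deposited a single table of whole-number read counts per gene symbol for 16 libraries, without normalization. The submitters' processing notes name Bowtie 1.0.0, TopHat 1.4.1, HTSeq 0.7.1 and build mm10. Column names gave each library's number, and labels its group. All columns were used.

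Symbols were kept by filterByExpr (minimum count 10, minimum total 15), which left 9213 of 23337. Counts were fitted over all 16 libraries in edgeR 4.0.16 (R 4.3.3) by the quasi-likelihood method, with TMM scaling and a mean for each group, and Benjamini-Hochberg adjustment was made within each of 5 comparisons. Standard errors were taken from the F statistic. The procedure was tested on simulated data. Members and gene lists were chosen with earlier results of these data known. Named were all members, Ltbr, the 3 cytokine targets, list genes past the threshold with stimulation (at most 6 a list) and the 3 genes most like each member that fell, while Rgs10, Gnai2 and Cxcr2 were named after their values were seen. Promoters came from RefSeq GRCm38.p6 and gene places from GENCODE M21 on GRCm38, matched by symbol.

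Alternatives were other scalings, filters and thresholds, DESeq2 1.42.0, limma 3.58.1 (voom with sample weights), the index as a covariate, fits of the compared groups only, the column names' number as a block and each library left out. After seeing the data, fits without libraries 68, 75 and 77, without 76 and 82 and within 1 index were added. Same-group libraries differed by more than sampling noise (25 pairs, chi-square divided by its degrees of freedom between 6.82 and 47.8), and each counted once.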

Additional observations from a re-analysis of the deposited data

Results flagged for a closer look

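Rgs19 in library 68 (unstimulated LTβRΔN) had 517 CPM, far above the other 3 libraries of its group at 327 to 343 CPM. Library 68 had the lowest total of the series, 1094335 counts. Of 18 groups of member values looked at 1 stood out in this way, and chance gives about 1 in 20, or 0.9.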

How the results depend on the processing

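The count of members past the threshold was 2 in each stimulation comparison and 0 in the genotype comparisons and the interaction. In control neutrophils it was 1 when at least 10 counts were required in every library, since Rgs1 was then not tested, and 1 within index S521, where Rgs1 had a like fold (-3.43, against -3.40) with an adjusted p of 0.329 from fewer libraries. In LTβRΔN neutrophils it was 3 by library totals, where Rgs19 also passed, 1 with at least 10 counts in every library and 0 with the index as a covariate, for which the cause was not tested, and it ranged from 1 to 2 with single libraries left out, being 1 without library 67. The other comparisons kept 0 members throughout. Rgs16 had no value to test on any scale.

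The labels do not say what the numbers in the column names mark, and they may mark an animal. They were not taken to pair the libraries, since 0 of 7 same-numbered pairs had a correlation of deviations over 0.1. All 7 correlations were positive (0.021 to 0.069), and, as a hint of pairing from the data, 5 of 7 unstimulated libraries were most like the stimulated library of their number. With the number as a replicate block 324 genes passed in control and 343 in LTβRΔN neutrophils, against 321 and 344, and Rgs1 changed by -3.04 and -2.88 and Rgs2 by -1.37 and -1.41. The interaction with the block turned to 0.18 for Rgs18 and -0.041 for Rgs2, and Rgs14 in control to 0.13. Genotype comparisons share no numbers and could not be blocked.

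Signs turned only for differences that did not pass the threshold. With stimulation in control, Rgs14 (main -0.0028) became 0.01 with DESeq2 size factors and in DESeq2, 0.0093 with at least 10 counts, 0.31 with the index covariate, 0.30 within S521 and 0.12 without libraries 76 and 82, and ranged from -0.14 to 0.15 with single libraries left out. Rgs18 there became 0.32 with the index covariate and within S521, and ranged from -0.40 to 0.074 with single libraries left out. In LTβRΔN neutrophils, Rgs3 (main -0.011) became 0.0066, 0.012, 0.0045, 0.0043 and 0.0067 with DESeq2 size factors, at least 10 counts, DESeq2, the compared groups only and without 76 and 82, and ranged from -0.12 to 0.068 with single libraries left out. With the index covariate Rgs14 became 0.38 and Rgs18 0.23, and without 68, 75 and 77 Rgs14 became 0.002. By genotype without stimulation, Rgs18 (main 0.009) became -0.059 by library totals, -0.16 with the index covariate and -0.15 within S520, and ranged from -0.16 to 0.16 with single libraries left out, Rgs14 from -0.21 to 0.076 and Rgs19 from -0.021 to 0.24. Rgs19 was -0.026 without 68, 75 and 77. With stimulation, Rgs18 became 0.024 and Rgs19 0.013 without 76 and 82, and they ranged from -0.40 to 0.069 and -0.18 to 0.019 with single libraries left out, library 82 turning both. For the interaction, Rgs14 became 0.0038 by library totals, 0.023 in voom, 0.074 with the index covariate and 0.0057 without 68, 75 and 77, which also gave -0.25 for Rgs1 and -0.048 for Rgs3. Rgs18 became 0.013 without 76 and 82. With single libraries left out Rgs14 ranged from -0.21 to 0.077 and Rgs18 from -0.42 to 0.059.

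Over all genes, stimulation changed 157 genes in control and 79 in LTβRΔN neutrophils with the index covariate and 153 in control within S521. At an unadjusted p under 0.01 it was 512 and 577. By genotype 2 genes passed in each comparison, against 4 and 14 in DESeq2, 1 and 1 with at least 10 counts in every library, and 56 and 136 at an unadjusted p under 0.01. Without stimulation it was also 5 in voom, 4 with every gene of at least 1 count and 6 without library 71. For the interaction 0 genes passed, against 1 with the index covariate, 2 without library 71 and 60 at an unadjusted p under 0.01. Depth limits Rgs1 most, with 3 to 44 counts in stimulated libraries.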
